A study of Mus musculus with 9 samples.

Results

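Among the cells of dissociated mouse trigeminal ganglia were 52 barcodes rich in transcripts of Pomc or Cga, hormone genes of the anterior and intermediate pituitary. They were chosen by their hormone transcripts. A barcode had 200 to 8500 genes, a UMI (a unique transcript) of at most 2 of the neuron genes Tubb3, Scn9a, Nefl and Nefm, Pomc at 2% or more of its UMIs or Cga at 1% or more, Gh under 10% and Prl under 3%. The 52 made up 0.743% (0.556 to 0.973) of the 6997 barcodes deposited and 0.804% (0.601 to 1.05) of the 6464 within the limits on genes. By the larger of the 2 counts, 25 fell on the Pomc side and 27 on the Cga side. Ranges in parentheses are exact 95% intervals, binomial for shares of cells and Poisson for UMIs, and cover counting error only.

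The study profiled ganglia of wild-type FVB/N mice, 3 to 6 weeks old by the labels, with no treatment or mutant group. Cells were enriched for neurons on a Percoll gradient and by magnetic depletion of other cells, and 9 Dropseq runs were made from pools of mice. Barcodes in the table do not name their run or animal, so all cells are 1 pooled sample. No test between groups of cells was therefore made, and differences are given by their size, with 2-fold as the size called.

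In the pituitary, Pomc encodes a prohormone that is cut into ACTH in corticotrophs and further, to alpha-MSH, in melanotrophs. Cga encodes the alpha subunit shared by the glycoprotein hormones. It pairs with the beta subunit Tshb in thyrotrophs, which make thyrotropin, and with Lhb or Fshb in gonadotrophs, which make luteinising and follicle-stimulating hormone. Pitx1 is a transcription factor of the whole lineage. Tbx19 acts in both kinds of Pomc cell, Pax7 in melanotrophs, and Pou1f1 in thyrotrophs, somatotrophs and lactotrophs.

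The stretches just upstream of 3 of these genes are shown because those genes define the sides and the main split of the Cga side. Sequences are from RefSeq (GRCm38.p6), the 250 bases before the annotated start, 5′ to 3′ on the gene's strand. They lie at chr12:3954695-3954944 (plus strand) for Pomc, chr4:34893529-34893778 (plus strand) for Cga and chr3:102782715-102782964 (minus strand) for Tshb. Capitals mark matches, on either strand, of TATAAA (the TATA box) or CAAGGNCA (a motif of the NR5A1 type, known from gonadotrophs).
Pomc: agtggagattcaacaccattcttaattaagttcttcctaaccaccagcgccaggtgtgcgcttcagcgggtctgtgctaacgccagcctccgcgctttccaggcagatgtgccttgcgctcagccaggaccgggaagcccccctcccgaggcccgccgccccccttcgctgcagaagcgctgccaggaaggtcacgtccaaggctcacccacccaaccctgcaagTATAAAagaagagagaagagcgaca
Cga: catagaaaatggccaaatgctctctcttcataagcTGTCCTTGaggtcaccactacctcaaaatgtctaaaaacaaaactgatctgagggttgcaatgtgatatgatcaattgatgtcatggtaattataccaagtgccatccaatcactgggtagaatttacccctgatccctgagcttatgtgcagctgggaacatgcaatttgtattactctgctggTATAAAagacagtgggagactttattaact
Tshb: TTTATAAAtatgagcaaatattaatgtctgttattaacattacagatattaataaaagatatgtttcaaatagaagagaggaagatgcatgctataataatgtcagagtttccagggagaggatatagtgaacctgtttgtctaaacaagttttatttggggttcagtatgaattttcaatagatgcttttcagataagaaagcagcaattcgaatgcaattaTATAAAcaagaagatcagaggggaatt
The TATA box letters stood at -25 in Pomc, -30 in Cga and -27 in Tshb, with overlapping matches at -250 and -248 in Tshb, and 12.4% of 32851 such windows hold them. CAAGGNCA occurred at -215 in Cga and, in the Lhb window, at -129 and -59, against 5.53% of all windows.

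In the cells of the Pomc side, Pomc took from 2.02% to 33.8% of a cell's UMIs, with a median of 13.4%. Pooled over the 25 cells it was 11.7% (11.4 to 11.99) of 58728 UMIs. On the Cga side, Cga took 1.07% to 8.89%, with a median of 1.95%, and 2.91% (2.79 to 3.03) of 79306 UMIs pooled. These values describe the choice of the cells. Free RNA gives UMIs to cells that do not make a transcript, so the level in 3640 barcodes with 3 or 4 of the neuron genes serves as background. Pomc was 0.00535% of UMIs there and Cga 0.00225%. Of these UMIs, 652 of 1227 of Pomc and 351 of 515 of Cga came from 9 barcodes that themselves reached a Pomc or Cga limit, and without them the levels were 0.00251% and 0.000716%. Other cells rich in hormone transcripts had higher levels. Pomc and Cga were 0.0277% and 0.0201% of UMIs in cells with Gh at 10% or more. In cells with Prl at 3% or more they were 0.0326% and 0.00501%. Both sets were chosen with Pomc under 2% and Cga under 1%.

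The Pomc limit fell in a sparse stretch and the Cga limit in a dense one. With the other limits kept, the lowest Pomc shares inside were 2.02%, 2.34%, 4.01% and 4.10%, and the highest outside were 1.27%, 1.18%, 0.728% and 0.678%. The cell at 2.34% was on the Cga side. For Cga, the lowest inside were 1.07%, 1.08%, 1.12% and 1.16%, and the highest outside 0.955%, 0.948%, 0.884% and 0.755%. Between 0.5% and 1% lay 11 barcodes, and between 1% and 2% lay 16.

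**Figure D1:**
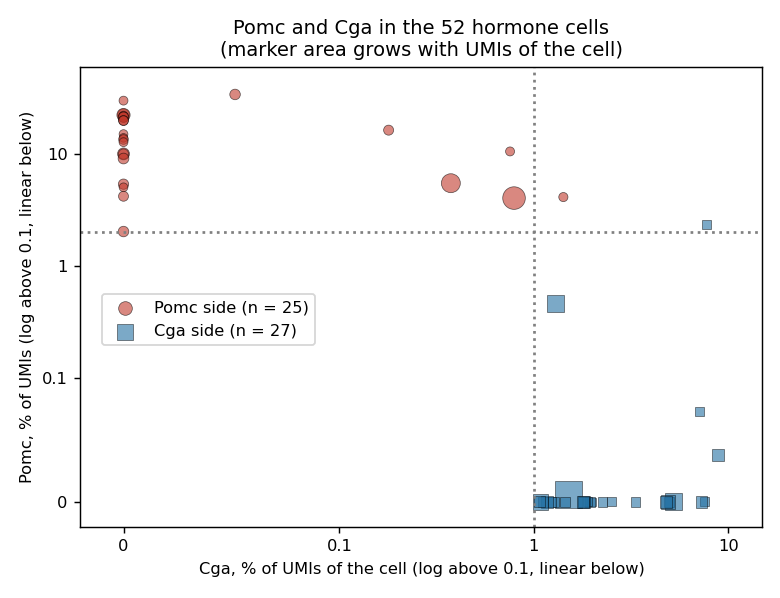
Share of each cell's UMIs from Pomc (vertical axis, percent) and Cga (horizontal axis, percent) in the 25 cells of the Pomc side (red circles) and the 27 of the Cga side (blue squares), on axes that are logarithmic above 0.1 and linear below; dotted lines mark the limits of 2% and 1%, and larger markers have more UMIs. Most cells lie on an axis, and 2 cells pass both limits.

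Few cells held both transcripts. A UMI of Cga was seen in 6 of the 25 cells of the Pomc side and a UMI of Pomc in 5 of the 27 of the Cga side, and 2 cells passed both limits. For comparison, a UMI of Cga was seen in 7.94% of the cells with Gh at 10% or more and in 5.61% of those with Prl at 3% or more. A UMI of Pomc was seen in 15.2% and 26.0% of these cells. On the Pomc side, the 2 cells with most UMIs, 8019 and 11761, held 30 and 93 UMIs of Cga. The deeper of these also held 6 UMIs of Lhb and had Prl at 2.48%, and the other had Gh at 5.20%. No doublet caller was run, and whether these are 2 cells in 1 droplet was not tested. On the Cga side, the cell at both limits had 116 UMIs of Cga and 35 of Pomc. A deep cell of that side, with 6495 UMIs, had 84 UMIs of Cga, 30 of Pomc and Prl at 2.62%. Whether these hold more than 1 cell was not tested either.

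Depth was modest and similar on both sides. The Pomc side had 1053 to 11761 UMIs per cell (median 1676) and a median of 943 genes, and the Cga side 1061 to 16789 UMIs (median 1849) and 1127 genes. Neurons had a median of 3327.5 UMIs. Gh was 1.10% of UMIs on the Pomc side and 0.860% on the Cga side, against 0.205% in neurons. A few cells carried much of it, up to 5.20% and 8.78% of their UMIs, and the medians over cells were 0.147% and 0.164%, with 0 in neurons. Red blood cells (537 barcodes with 20% or more globin transcripts, of which 12 are also Gh cells and 1 is a Pomc-side cell) had 0.95% pooled and a median of 0.141%. Of 5 immune markers, none had a UMI on either side, and of the glial markers Sox10, Mog and Fabp7 had none. Of 10 sensory neuron markers, 4 are the neuron genes that the choice of cells used. The other 6 (Avil, Calca, Prph, Snap25, Tac1 and Uchl1) took 0.131% of UMIs on the Pomc side and 0.0731% on the Cga side, against 1.37% in neurons. A UMI of 2 of the 4 neuron genes was seen in 12 cells of the Cga side and 3 of the Pomc side.

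The lineage factors described here were sparse on both sides. Pitx1, a marker proposed for these cells, was seen in 6 cells of the Cga side but in only 1 of the Pomc side, against 0.357% of neurons. On the Pomc side Pitx1 therefore adds little to the label, and Pomc cannot test it because it was used to choose the cells. Of the genes described next, none of Pcsk2, Pax7 and Oacyl was seen in 13 of the 25 cells. Lhx3, a LIM factor of the early pituitary, was found in 8 cells of the Cga side and 6 of the Pomc side, against 0.247% of neurons. Isl1 was seen in 8 and 1 cells, but it is also neuronal, with a UMI in 54.6% of neurons.

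Genes known from melanotrophs were seen in part of the Pomc side. Pcsk2, the convertase that cuts ACTH further, had 24 UMIs in 9 cells. Pax7 had 7 UMIs in 6 cells and Oacyl 14 UMIs in 8, while neither had a UMI on the Cga side. On GRCm38, Pcsk2 lies on chromosome 2 (143546156 to 143816285, plus strand) and Pax7 on chromosome 4 (139737062 to 139833528, minus strand). The Pomc share itself chose the cells, and the following division by it was made after its values were seen and is a description only. Of the 9 cells with Pomc at 19.7% or more, 7 had Pcsk2, 5 had Pax7 and 5 had Oacyl. Of the 16 cells at 16.2% or less, 2 had Pcsk2, 1 had Pax7 and 3 had Oacyl. The cell with the highest Pomc share, 33.8%, had none of the 3. Pcsk2 was found together with Pax7 in 5 cells and with Oacyl in 6. All 3 genes were seen in 3 cells, 2 of them in 5 cells, 1 in 4 and none in 13.

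The background of these genes differed. Pax7 had a UMI in 0.0275% of neurons and Oacyl in 0.467%, and Pax7 had none in 441 Gh cells (Gh at 10% or more) or in 196 Prl cells (Prl at 3% or more). Pcsk2 is also a neuronal gene and had a UMI in 46.0% of neurons, at a level of 191 CPM (UMIs per 1000000 UMIs outside the 7 hormone genes). It stood at 474 CPM (304 to 705) on the Pomc side and 106 CPM (45.8 to 209) on the Cga side. In the Gh cells and the Prl cells it was at 14.7 and 21.0 CPM.

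Tbx19, a factor of both kinds of Pomc cell, and receptors known from corticotrophs were sparse. Of the 25 cells 16 had no Pcsk2. Tbx19 had 5 UMIs in 5 cells, 1 of them with Pcsk2. Crhr1, the receptor for corticotropin-releasing hormone, had 4 UMIs in 2 cells and the vasopressin receptor Avpr1b 2 UMIs in 2 cells, none with Pcsk2. Of the 8 cells with Tbx19, Crhr1 or Avpr1b, 1 had Pcsk2 and 1 had Pax7. Neurod1, a partner of Tbx19 at the Pomc gene, was seen in 1 of the 9 cells richest in Pomc and in 7 of the other 16. Tbx19, Crhr1 and Avpr1b had no UMI on the Cga side, in 0 of 27 cells. Neurod1 was seen there too, with up to 8 UMIs in a cell, against up to 4 on the Pomc side. The convertase Pcsk1, which makes ACTH, had 2 UMIs in 2 cells of the Pomc side, but up to 6 UMIs in a cell of the Cga side. On the Pomc side Drd2, the dopamine receptor of melanotrophs, had none in 25 cells, which allows a share of cells with a UMI of up to 12%.

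**Figure D2:**
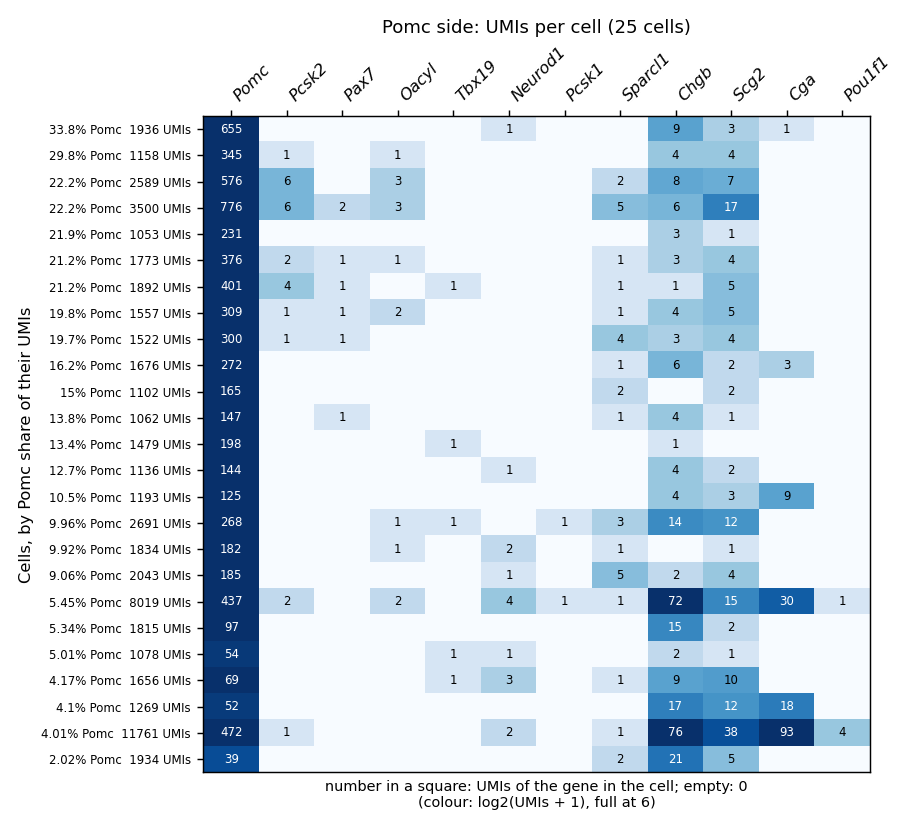
UMIs of 12 genes (columns) in the 25 cells of the Pomc side (rows), ordered from the highest Pomc share of UMIs (33.8%) at the top to the lowest (2.02%); numbers are UMIs, and the colour is their log2(UMIs + 1). Of the 9 upper cells 7 have Pcsk2, 5 Pax7 and 5 Oacyl, and of the lower 16 there are 2, 1 and 3, while most UMIs of Neurod1, Cga and Chgb lie in the lower rows.

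Against the cells without Pcsk2, the 9 with it had 13.8% of the 196 genes tested at least 2-fold higher, Pcsk2 included, and 3.57% at least 2-fold lower. A gene was tested with 20 UMIs and 10% of the cells in either group, and called only where the higher group met this. That filter shapes the split, since 20 UMIs are 692 CPM in the former and 920 CPM in the latter, and 185 of the genes entered through the cells with Pcsk2. They had a median of 1892 UMIs against 1567.5, so a gene had more chance to be seen in them. The deepest pair held 8019 and 11761 of the group's 33771 UMIs, so the filter and these counts rest largely on that pair. The Pomc share of the cells with Pcsk2 had a median of 21.2%, with a range of 4.01% to 29.8%, against 10.2%, with a range of 2.02% to 33.8%, so the ranges overlap. Lhx3 had a UMI in 6 of the 9 cells and in 0 of the 16 without Pcsk2, and in 4 of 7 once the pair of deepest cells was left out. Chga, which encodes chromogranin A, was at 1800 CPM against 644 CPM, a log2 ratio of 1.45 (0.61 to 2.45), and 2388 CPM in those 7. Alcam, a cell adhesion gene, was at 692 CPM against 230.0 CPM, with a log2 ratio of 1.49 (0.13 to 3.36), and at 1470 CPM, with 16 UMIs in 5 cells, in the 7. The stress gene Atf3 had 24 against 8 UMIs, a log2 ratio of 1.12 (-0.03 to 2.54), but 14 of the 24 came from 1 cell and the median was 0 in both groups. In the other direction, Ddit3, a stress-response factor, was at 173 CPM against 966 CPM, a log2 ratio of -2.38 (-4.24 to -1.03). The globins Hbb-bs and Hbb-bt were lower as well. Hbb-bs was at 8794 CPM against 19872 CPM, a log2 ratio of -1.18 (-1.41 to -0.95), and 176 of the 432 UMIs in cells without Pcsk2 came from 1 cell, where it made up 16.0% of UMIs. Hbb-bt had 23 against 86 UMIs, a log2 ratio of -2.29 (-3.04 to -1.64), with 55 of the 86 in 1 cell. The part of red blood cell RNA in these differences was not tested.

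The Cga side fell apart by its beta subunits. Tshb had more UMIs than Lhb and Fshb together in 10 cells, fewer in 9, and 8 were undecided, 7 of them with no UMI of a beta subunit and 1 with 1 UMI each of Tshb and Lhb. Tshb had 426 UMIs in 11 cells, up to 122 in 1 cell, and 7 cells had 10 or more. Lhb had 18 UMIs in 9 cells and Fshb 34 in 8, with no more than 9 UMIs of either in a cell. Tshb and Fshb were never seen together, Tshb and Lhb in 1 cell, and Lhb and Fshb in 7. In neurons, Tshb was seen in 0.412%, Lhb in 0.110% and Fshb in 0.0549% of cells.

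Genes that the split did not use went with it. Dio2, the deiodinase that activates thyroid hormone, had 34 UMIs in 8 of the 10 Tshb-led cells and none in the 9 led by Lhb or Fshb. There 0 of 9 allows a share of cells with a UMI of up to 33.3%, which does not limit the share that make the transcript. In CPM Dio2 was at least 4.50-fold higher in the Tshb-led cells, taking 3 UMIs as the limit for the 9 cells together. Trhr, the receptor for thyrotropin-releasing hormone, had 6 UMIs in 3 Tshb-led cells and none elsewhere on the Cga side. Gnrhr, the gonadotropin-releasing hormone receptor, had 12 UMIs in 5 of the 9 Lhb or Fshb-led cells and none in the 10 Tshb-led cells. Dio2 lies on chromosome 12 (90724552 to 90738438) and Gnrhr on chromosome 5 (86180754 to 86197901), both on the minus strand. Over the whole Cga side, 11 cells had Dio2 or Trhr, 9 had Gnrhr and 0 had both.

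The Tshb-led cells were deeper, with a median of 2679.5 UMIs against 1470, so shares were also taken after thinning each cell to 1000 UMIs. The expected share with Dio2 was then 49.7% in the Tshb-led cells (80% before), and that with Gnrhr 41.1% in the Lhb or Fshb-led cells (55.6% before). In neurons, Dio2 had a UMI in 1.84% and Gnrhr in 0.137% of cells. The undecided cells divided in the same way, with Gnrhr in 4, Dio2 or Trhr in 3 and neither in 1.

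Pou1f1 followed the split less cleanly. It had 16 UMIs in 6 of 10 Tshb-led cells, 3 UMIs in 2 of 9 Lhb or Fshb-led cells and 7 UMIs in 4 of 8 undecided cells, 2 of them with Gnrhr. After thinning the shares were 30.9% in the Tshb-led and 17.4% in the Lhb or Fshb-led cells. Nr5a1, a nuclear receptor of gonadotrophs, had 1 UMI in 1 cell, which had 4 UMIs of Fshb and 1 of Lhb. Gata2, known in both lineages, had 3 UMIs in 3 Tshb-led cells, 1 in 1 Lhb or Fshb-led cell and 2 in 2 undecided cells. None of the 3 enzymes of the list that build the glycans of these hormones, Chst8, B4galnt3 and B4galnt4, had a UMI on the Cga side. On the Pomc side Chst8 and B4galnt4 had at most 1 UMI in a cell and B4galnt3 had none. At this depth the lack of a UMI does not show that the transcripts are absent.

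**Figure D3:**
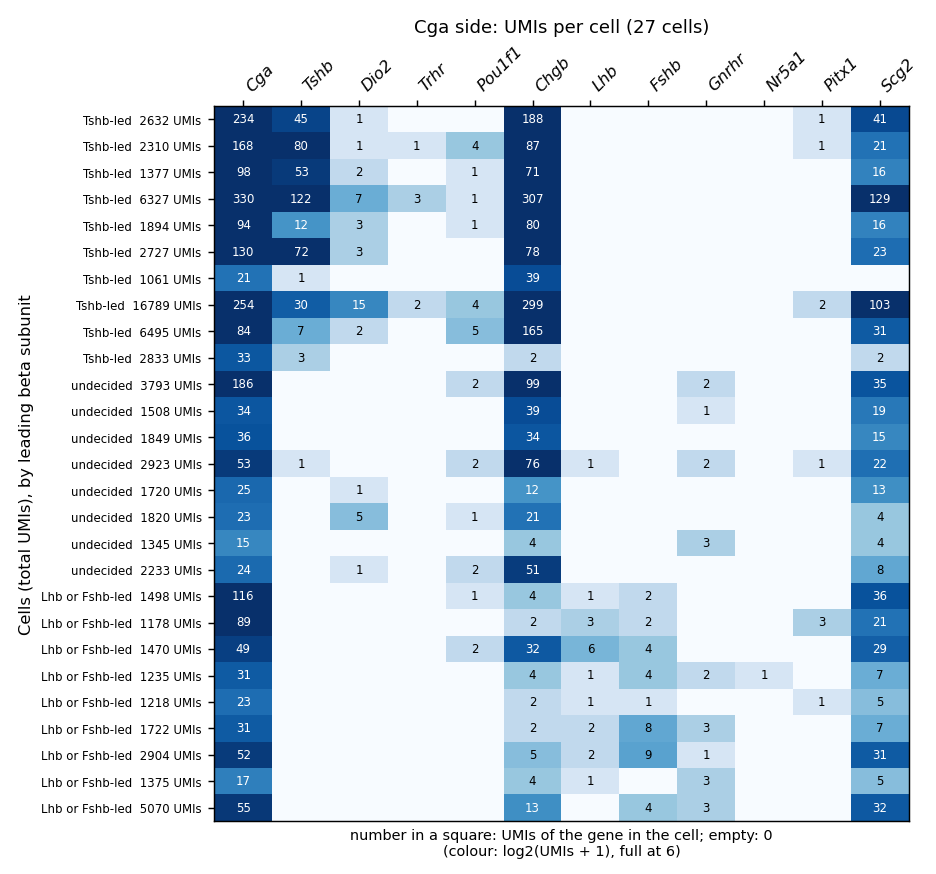
UMIs of 12 genes (columns) in the 27 cells of the Cga side (rows), grouped from top to bottom into 10 Tshb-led, 8 undecided and 9 Lhb or Fshb-led cells; numbers are UMIs, and the colour is their log2(UMIs + 1). Dio2 and Trhr stop above the lowest group, Gnrhr is absent from the top group, and Chgb is high in 9 of the 10 Tshb-led cells.

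Chgb and Chga differed between the same groups of cells, in opposite directions, and Pcsk1n, which encodes a granin-like inhibitor of Pcsk1, was at 2653 CPM in the Tshb-led against 1074 CPM in the Lhb or Fshb-led cells, a log2 ratio of 1.27 (0.58 to 2.11). Scg2 (log2 ratio -0.19) and Scg3 (-0.28) stayed within 2-fold. Chgb (chromogranin B, a protein of secretory granules) took 0.0706% to 7.14% of UMIs in the Tshb-led cells, with a median of 3.72%, and 0.116% to 2.18% in the Lhb or Fshb-led cells, with a median of 0.256%. The groups overlap by a cell on each side. Without its lowest cell, the Tshb-led group starts at 1.78%, and without its highest, the other ends at 0.324%. Pooled, Chgb was at 31172 CPM against 4059 CPM, a log2 ratio of 2.93 (2.59 to 3.31). Undecided cells ran from 0.297% to 2.61%.

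Chga went the other way, with 1137 CPM in the Tshb-led and 4477 CPM in the Lhb or Fshb-led cells, a log2 ratio of -1.97 (-2.53 to -1.44). Its share of a cell's UMIs had a median of 0.126% and a highest value of 0.660% in the former, and a median of 0.486%, from 0.0727% to 1.05%, in the latter, so the ranges overlap. Without the deepest Tshb-led cells, with 16789 and 6495 UMIs, Chga was at 1891 CPM in that group, so much of the size rests on them. Scg2 (secretogranin II) had a median share of 0.844% in the Tshb-led and 0.631% in the Lhb or Fshb-led cells. Rgs4, a regulator of G protein signalling, had 20 UMIs in 8 of 9 Lhb or Fshb-led cells and 4 UMIs in 4 of 10 Tshb-led cells, at 1194 and 94.7 CPM.

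Between the Tshb-led and the Lhb or Fshb-led cells 303 genes were tested, of which 18.5% were at least 2-fold higher in the former and 3.96% at least 2-fold lower. The filter shapes this split, since 20 UMIs are 474 CPM in the former and 1194 CPM in the latter, and 301 of the genes entered through the Tshb-led cells. Of the 14 immediate early and stress genes, 10 were tested, with 3 higher (Jun, Egr1 and Hspa1a), none called lower and a median log2 ratio of 0.15, against 0.29 over all genes tested. Junb, with 19 against 18 UMIs, was under the limit of 20, at 450 and 1074 CPM, a log2 ratio of -1.26 (-2.26 to -0.24). Jun was at 3979 CPM in the Tshb-led and 1492 CPM in the Lhb or Fshb-led cells, with 92 of 168 UMIs in 1 cell. Egr1, another immediate early gene, was at 2890 and 1254 CPM, a log2 ratio of 1.18 (0.53 to 1.95), with 75 of 122 UMIs in 1 cell. The heat shock gene Hspa1a had 38 UMIs in the former and none in the latter. Mt1 (metallothionein 1) was at 2156 and 12058 CPM, but 140 of its 202 UMIs in the Lhb or Fshb-led cells came from 1 cell. In the Tshb-led cells 76 of its UMIs came from 1 cell, and the level was 767 CPM without the deepest pair. Of the 38 UMIs of Hspa1a, 19 came from 1 cell. Of the 5 red blood cell markers 2 were tested and both were lower in the Tshb-led cells, Hba-a1 with 40 against 57 UMIs, a log2 ratio of -1.84 (-2.47 to -1.24), and Hbb-bs with 106 against 90, a log2 ratio of -1.10 (-1.52 to -0.68). The part of free RNA from red blood cells in these values was not tested.

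The Pomc and Cga sides were then compared over all genes outside the 7 hormones. A gene entered with 20 UMIs and 10% of the cells on either side, which 683 genes met, and was called only where its higher side met this. Of these 29, or 4.25%, were at least 2-fold higher on the Pomc side, and 63, or 9.22%, at least 2-fold lower. The median log2 ratio was -0.09. The filter bears on this split too, since 305 of the genes, 55 of those called lower among them, entered through the Cga side alone, and of the 378 that met it on the Pomc side 29 were higher and 8 lower. With CPM taken over all UMIs, every log2 ratio shifts by -0.14, with 24 genes higher and 80 lower.

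Highest on the Pomc side by ratio was Sparcl1, which encodes a secreted matricellular protein, on chromosome 5 (104079111 to 104113733, minus strand). It had a UMI in 16 of 25 cells, at most 5 in any of them, and on the Cga side in 1 of 27, which held 4. Its level was 632 CPM (432 to 892) against 53.0 CPM (14.4 to 136), a log2 ratio of 3.43 (2.08 to 5.54). After thinning, 42.1% of the cells of the Pomc side and 3.11% of the Cga side are expected to show it. It was at 103 CPM in neurons, 25.04 CPM in Gh cells and 15.8 CPM in Prl cells. It had 16 UMIs in 8 of the 9 cells with Pcsk2 and 16 UMIs in 8 of the 16 without, at 554 and 736 CPM. Once the deepest pair of cells with Pcsk2 was left out, Sparcl1 had 14 UMIs in 6 of the other 7, at 1286 CPM. The direction of this difference therefore depends on that pair. A gene on the other strand, Gm26703, overlaps Sparcl1, so UMIs of the 2 could be mixed.

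Next came Syt1 and Pcsk2, then Alcam and Nr4a2. Syt1, a calcium sensor of vesicle release, was seen in 11 cells of the Pomc side and 4 of the Cga side, at 474 and 79.5 CPM, a log2 ratio of 2.49 (1.25 to 4.16). Pcsk2 had a log2 ratio of 2.10 (0.96 to 3.53). Nr4a2, a nuclear receptor induced by hypothalamic signals in Pomc cells, was seen in 13 and 9 cells, at 514 and 172 CPM, a log2 ratio of 1.55 (0.56 to 2.66), and its level was 7.43 CPM in neurons. The remaining genes of the highest 12 were Tsn, Pa2g4, Gadd45g, Dync1i2, Ythdc1, Cdk11b and Eprs, with log2 ratios of 1.36 to 1.54. For Pa2g4, 57.1% of its UMIs came from 1 cell, and its log2 ratio was -0.0932 without the 2 deepest cells of each side. In the same setting, Dync1i2 (0.84) and Eprs (0.52) also fell short of 2-fold.

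**Figure D4:**
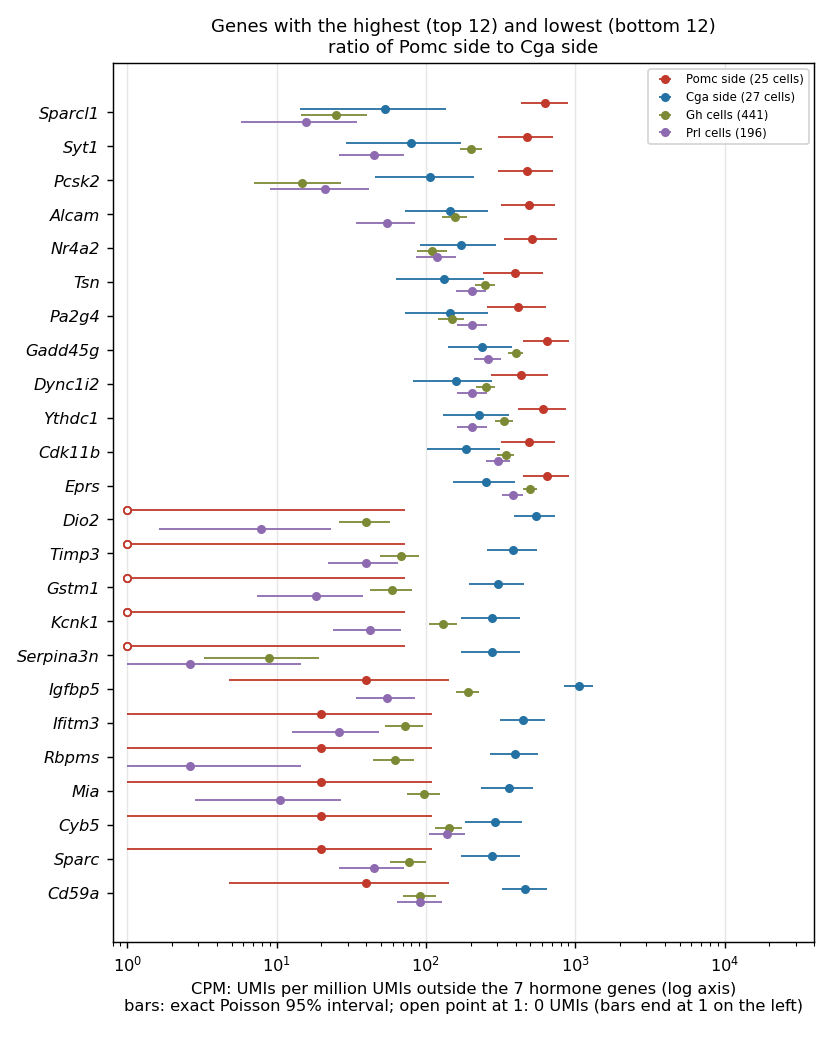
Level of the 12 genes with the highest and the 12 with the lowest ratio of Pomc side to Cga side, in CPM on a log axis, in the Pomc side (red, 25 cells), Cga side (blue, 27), Gh cells (olive, 441) and Prl cells (purple, 196); bars are exact Poisson 95% intervals and open points stand for 0 UMIs. Sparcl1 reaches 632 CPM on the Pomc side and 53.0 CPM on the Cga side, and 5 genes of the lower set have 0 UMIs on the Pomc side.

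The 12 lowest on the Pomc side held genes found across the Cga side as well as genes of few cells. The intervals of all 12 lay below 0, but the genes were chosen by their ratios in the same data. The intervals also treat UMIs of the same cell as independent, so they add little to the ratios. Dio2 had 0 UMIs on the Pomc side and 41 on the Cga side, at least 9.17-fold lower, taking 3 UMIs as the limit. Igfbp5, an IGF binding protein, was seen in 1 and 14 cells, at 39.5 and 1060 CPM, a log2 ratio of -4.43 (-7.82 to -2.85), with 42.5% of its UMIs from 1 cell. It was present in 5 Tshb-led, 4 Lhb or Fshb-led and 5 undecided cells. Cd59a, an inhibitor of complement on the cell surface, was seen in 2 and 15 cells, at 39.5 and 464 CPM, and Cyb5 in 1 and 11 cells.

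Timp3, an inhibitor of metalloproteinases, had 29 UMIs in 7 cells of the Cga side, 25 of them in Tshb-led cells, and none on the Pomc side. Gstm1 (6 cells), Kcnk1 (7 cells) and Serpina3n (5 cells) likewise had none on the Pomc side, and were lower there by at least 5.14-fold, 4.69-fold and 4.69-fold. Most of the remaining 4 of the lowest 12 rest on few cells. Ifitm3, Rbpms and Mia were seen in 4, 4 and 7 cells and Sparc in 3, with 70% of the UMIs of Rbpms and 90.5% of those of Sparc from 1 cell.

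Among the lists, that of prohormone processing and granins had 13 genes, of which 9 were tested, with 1 higher (Pcsk2) and 3 lower (Chgb, Scg2 and Pam), and a median log2 ratio of -0.66. Over all genes tested 4.25% were higher and 9.22% lower, with a median of -0.09. Chgb had 288 UMIs on the Pomc side and 1720 on the Cga side, at 5689 and 22788 CPM, a log2 ratio of -2.0 (-2.19 to -1.82). The gap was mostly that of the Tshb-led and undecided cells, since the Lhb or Fshb-led cells were at 4059 CPM. Scg2 was at 3161 and 8943 CPM, a log2 ratio of -1.497 (-1.76 to -1.25), and Pam, which amidates peptides, at 198 and 530 CPM, a log2 ratio of -1.37 (-2.59 to -0.40). Chga (-0.85), Scg5 (-0.66), Scg3 (-0.12), Pcsk1n (-0.22) and Cpe (0.42) stayed within 2-fold.

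Within the Pomc side, Chgb was uneven. Its share of a cell's UMIs had a median of 0.335% and a highest value of 1.34%, in a cell with Pomc at 4.10% that also passed the Cga limit. In the 7 cells with Pcsk2 that remain without the deepest pair it lay between 0.0529% and 0.345%.

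**Figure D5:**
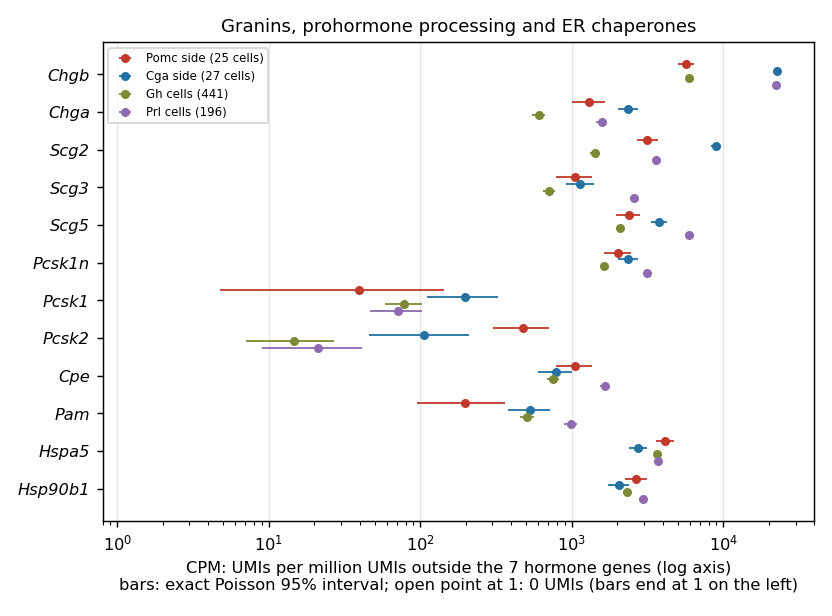
Level of granins, prohormone processing enzymes and ER chaperones in CPM on a log axis in the Pomc side (red), Cga side (blue), Gh cells (olive) and Prl cells (purple); bars are exact Poisson 95% intervals. Chgb on the Pomc side lies with the Gh cells and on the Cga side with the Prl cells, and Pcsk2 is highest on the Pomc side.

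Of the 15 genes of exocytosis, 4 were tested and 3 were higher on the Pomc side, Syt1, Snap25 and Syt4, against 4.25% higher over all genes tested. Snap25, a SNARE protein, was at 672 and 318 CPM, a log2 ratio of 1.07 (0.28 to 1.90), and Syt4 at 731 and 358 CPM, a log2 ratio of 1.02 (0.28 to 1.80). The latter was under 2-fold in all 5 alternatives of scale and cells (0.25 to 0.993) and Snap25 in 3 of the 5 (lowest 0.927), while Syt1 was above 2-fold in each (lowest 2.35). Neurons, at 905 CPM of Snap25 and 594 CPM of Syt4, are rich in both, and Syt1 had a median share of 0.0441% of a neuron's UMIs. The 6 sensory neuron markers outside the choice of cells, Snap25 among them, took 0.131% and 0.0731% of UMIs, and the part of neuronal RNA in these differences was not tested. Of the 10 markers 4 were tested, with Snap25 and Uchl1 higher and Nefl, which the choice of cells used, lower, and Uchl1 was under 2-fold in 2 of the 5 alternatives (lowest 0.902).

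The ER list held close to even, with 9 of 14 genes tested, 1 higher and 0 lower, and a median log2 ratio of 0.03, against -0.09 over all genes tested. Ddit3 was the higher gene, at 514 and 225 CPM, a log2 ratio of 1.17 (0.25 to 2.16), but 0.503 with limits of 5% for Pomc and 2% for Cga. Hspa5, the chaperone BiP, was at 4148 and 2756 CPM, a log2 ratio of 0.59 (0.31 to 0.87). Of 14 immediate early and stress genes 13 were tested, with 0 higher and Jun (-1.19) and Dusp1 (-1.15) lower, the interval of the latter reaching 0.13. The shares over all genes tested were 4.25% higher and 9.22% lower. Jun was under 2-fold in 1 of the 5 alternatives (-0.985) and Dusp1 in 2 (nearest to 0, -0.695). Of 19 receptors for regulators of the pituitary only Gnrhr was tested, and it was lower (-2.46). Pou1f1 (-1.69) and Dio2 were the tested genes of 8 thyrotroph genes, and both were lower. For Pou1f1, 4 of the 5 UMIs of the Pomc side came from its deepest cell. No gene of the lists for dividing cells, pituitary stem cells, glia, endothelium, fibroblasts or immune cells reached the limits on UMIs and cells.

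Set against the 441 Gh cells, several of the same genes led. The cells of each side are the same as in the comparison between the sides, so some overlap of leading genes is built in. The 2 comparisons with Gh cells share those Gh cells, so their values are given side by side only. On the Pomc side 2627 genes were tested, of which 0.876% were at least 2-fold higher and 11.8% at least 2-fold lower, that is 23 and 309 genes. On the Cga side 2644 were tested, with 2.61% higher and 10.8% lower, that is 69 and 286. The filter shapes these splits, since 20 UMIs are 29.5 CPM in Gh cells but 395 CPM on the Pomc side and 265 CPM on the Cga side. On the Pomc side 2249 of the genes entered through the Gh cells alone and could only be called lower, as 305 of them were. Of the 378 that met the filter on the Pomc side, 23 were higher and 4 lower. On the Cga side 1989 entered through the Gh cells alone, 276 of them lower, and of the other 655 there were 69 higher and 10 lower. The splits also depend on the scale, because the 7 hormones leave 86.2% of UMIs on the Pomc side, 95.2% on the Cga side and 62.2% in Gh cells. Over all UMIs, log2 ratios shift by 0.47 and 0.61, and the counts become 76 higher and 162 lower on the Pomc side and 192 higher and 80 lower on the Cga side.

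On the Pomc side the highest ratios to Gh cells were those of Pcsk2, with a log2 ratio of 4.97 (3.89 to 6.24), Sparcl1 at 4.64 (3.77 to 5.60), Nr4a2 at 2.24 (1.51 to 2.88) and Alcam at 1.68 (0.97 to 2.30). Hcfc1r1, Pa2g4, Ptma, U2surp, Hmgn5 and Gng2 made up the other 6 of the highest 10, at 1.32 to 1.53. Ghrhr, the growth hormone-releasing hormone receptor of somatotrophs, was at 19.8 CPM against 401 CPM in Gh cells, a log2 ratio of -3.76, and Pou1f1 was at -2.46 (-4.22 to -1.36).

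On the Cga side the highest was Gnrhr at 5.72 (4.15 to 8.30), followed by Serpina3n at 4.90 (3.62 to 6.58), Dio2 at 3.76 (3.04 to 4.53) and Rgs4 at 3.17 (2.42 to 3.92). Serpina3n and Rgs4 are also neuronal, at 198 and 1118 CPM in neurons. Sdc4, Rbpms, Scg2, Ifitm3, Zfp36l1 and Timp3 completed the highest 10, at 2.51 to 2.73. Chgb was at 1.93 (1.85 to 2.01) and Chga at 1.96 (1.70 to 2.22). Ghrhr was at -3.11 (-5.62 to -1.77), whereas Pou1f1 was at -0.77 (-1.42 to -0.22), within 2-fold of the Gh cells.

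Apart from the hormones, the transcripts with most UMIs were much the same on both sides. Gnas, the stimulatory G protein gene, gave 1.16% of UMIs on the Pomc side and 1.56% on the Cga side, Malat1 0.773% and 0.841%, and Mt1 0.851% and 0.622%. The globin Hbb-bs gave 1.17% and 0.854%, and it was also at 3468 CPM in neurons. Single cells carried much of it, 433 of the UMIs on the Cga side in a cell where it made up 11.4%, and its medians over cells were 0.334% on the Pomc side and 0.267% on the Cga side. The rest of the leading 10 were Nnat, Chgb and Meg3 on the Pomc side and Chgb, Scg2 and Actb on the Cga side. Chgb alone gave 2.17% of the UMIs of the Cga side and 0.490% of those of the Pomc side.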

How the data were processed

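Trigeminal ganglion cells from 9 Dropseq runs were measured as UMIs. The authors deposited counts of UMIs per gene and barcode, not normalized, in 1 table of 21536 genes and 6997 barcodes, with 30491529 UMIs and no map from barcodes to runs. The submitters' processing notes name STAR 2.5.3a, bcl2fastq 2.17, Seurat 1.4.0.16 and mm10. No column was left unused. Of the barcodes, 6 occur in 2 columns each, none of them among the cells described.

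Cells were chosen by the limits given, and the members and gene lists were chosen with earlier results of these data known. Lists held 157 genes, 155 of them in the table. CPM are UMIs per 1000000 UMIs outside Pomc, Cga, Tshb, Lhb, Fshb, Gh and Prl, and log2 ratios add 0.5 UMI to both groups, while their intervals (exact binomial, given the sum) do not. Genes were named if they were on a list, among the 12 highest or lowest ratios between the sides or the 10 highest against Gh cells, or among the 10 with most UMIs on a side. Gh cells and Prl cells had at most 2 neuron genes, Pomc under 2% and Cga under 1%. Some genes and the results that need them are not reported here. The Cga side was split by its beta subunits and the Pomc side by Pcsk2, and thinned shares are exact expectations.

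Cells are not replicates, so no test was run. With 25 and 27 cells and medians of 1676 and 1849 UMIs, transcripts below about 1 UMI per cell are seen in part of the cells only. No doublet caller was used. The ratio and interval code was tested on simulated data. Python 3.11.15, numpy 2.4.6, pandas 2.3.3, scipy 1.17.1 and matplotlib 3.10.9 were used. Gene positions and overlaps are from GENCODE (GRCm38). The strand used for counting is not given in the sources used here, so UMIs of Lhb and Ruvbl2, Dio2 and Gm26512, Sparcl1 and Gm26703, Tshb and Tspan2, and Pcsk2 and its antisense genes cannot be told apart with certainty. Alternatives changed the limits, scale and filters. The split alternatives without the deepest 10% of cells and the neuron level without barcodes at a Pomc or Cga limit were chosen after seeing the data.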

Additional observations from a re-analysis of the deposited data

Results flagged for a closer look

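Barcodes that reached a Pomc or Cga limit but were left out by another limit carried Pomc or Cga by that choice, and some of them other transcripts of these cells. Of these, 19 had Gh at 10% or Prl at 3% or more, with Gh at a median of 17.6% (0.0710% to 36.4%) and a median of 1935 UMIs. Tshb was seen in 6 of them, Dio2 in 5, Lhb in 9 and Gnrhr in 5, and 1 had Tshb at 12.7% of UMIs beside Cga at 7.30% and Gh at 20.0%. A further 9 had 3 or 4 of the neuron genes and so are counted among the neurons, 6 with Pomc at its limit, up to 8.02%, and 3 with Cga at its limit, up to 6.37%. The last, 1 barcode with 159 genes, had 24 UMIs of Cga and 25 of Tshb. Whether any of these hold more than 1 cell was not tested.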

How the results depend on the processing

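No paired analysis was possible because all cells form 1 pooled sample whose barcodes name no run. The Pomc side stayed between 22 and 31 cells under every limit tried. The Cga side had 12 cells with a Cga limit of 2%, 15 with at most 1 neuron gene and 40 with no limit on Gh. The numbers of Tshb-led, Lhb or Fshb-led and Pcsk2 cells stayed within their counting intervals under each alternative run for them. With 25 and 27 cells these intervals are wide, so staying within them says little about stability. No Tshb-led cell held a UMI of Lhb or Fshb, and no Lhb or Fshb-led cell one of Tshb. A wider margin between the beta subunits therefore could not move a cell between these groups. For genes, the number higher on the Pomc side than on the Cga side was 17 without the 10% of members with most UMIs (9 shared with the 29) and 2 with a minimum of 50 UMIs. The number lower was 45 without the deepest 10% (28 shared with the 63) and 10 with 50 UMIs. With stricter limits (Pomc 5%, Cga 2%) it was 18, of which 6 were shared with the 63. Against Gh cells, the Pomc side had 76 higher and 162 lower over all UMIs, 13 higher without the deepest 10%, 15 higher with the stricter limits, 3 higher with 50 UMIs and 928 lower with no minimum share of cells. The Cga side had 192 higher and 80 lower over all UMIs, 37 higher without the deepest 10%, 17 higher and 441 lower with the stricter limits, 12 higher with 50 UMIs and 799 lower with no minimum share of cells. Fewer or more genes and cells enter under these filters, and the all-UMI scale shifts all ratios at once. Pa2g4 turned to -0.0932 between the sides without the deepest 10%, and Hba-a1 to 0.15 and Hbb-bt to 0.13 on the Cga side against Gh cells with the stricter limits; the cause was not tested. Of the 12 genes named as lower on the Pomc side, all 12 stayed 2-fold lower under the 5 alternatives of scale and cells, and of the 12 named as higher, 8 to 12 did. Both sets were chosen as the most extreme ratios in the same data, so they do not stand for all genes called.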
